A study of Homo sapiens with 4 samples.

Results

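Collagens are extracellular matrix proteins built from chains wound into a triple helix, and each chain is encoded by its own gene. Fibril-forming types give tissue its tensile strength, type IV forms the network of basement membranes, type VII anchors that network to the underlying stroma, and transmembrane and fibril-associated types link cells or other matrix proteins to these structures. In the bladder, most fibrillar collagen is made by fibroblasts of the wall, while urothelial cells contribute chains of the basement membrane zone. The genes described here were taken by name from the deposited table, as those called COL, a type number of 1 or 2 digits, A and 1 further digit. This gave 44 collagen chain genes of 60623 genes listed, and 17 of the 44 reached a mean of 1 CPM over the 4 libraries (CPM is a gene's share of a library's total count, scaled to a common depth).

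RNA was measured in 2 libraries of T24 cells with raised miR-146a-5p and in 2 libraries of T24 cells given a scramble control. T24 is an established line from a human bladder carcinoma, and all 4 libraries share it as a single line. The sample labels call the first group overexpression, and the study's design names a transfected mimic of the microRNA. No label gives a time after transfection or says whether replicates were separate cultures. The p-values set the group difference against the variation between libraries of a group, and that variation may be technical. The design implies 1 comparison, miR-146a-5p over scramble.

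Each library held between 20290055 and 22774090 estimated counts. IRAK1, a textbook target of this microRNA, had 108 and 109 CPM in the miR-146a-5p libraries, against 498 and 716 CPM in the scramble libraries. More than 2-fold differences separated the miR-146a-5p pair in 2.71% of tested genes, against 23.5% for the scramble pair, so the scramble libraries were far less alike. Scramble replicate 2 stood apart along GC content: against scramble replicate 1, its median log2 difference was -1.87 in the lowest of 10 GC bins and 0.58 in the highest. Keratins KRT7, KRT8, KRT18 and KRT19 were present in every library, while CDH1 and the uroplakins UPK1A, UPK1B, UPK2 and UPK3A had between 0 and 3 counts in every library. The 6 epithelial markers summed to 4035 and 3705 CPM in miR-146a-5p cells, against 3792 and 5646 CPM in scramble cells. The 7 urothelial markers summed to 0.511 and 1.33 CPM in miR-146a-5p cells, against 0.357 and 0.483 CPM in scramble cells, with UPK3A and KRT5 at 0 throughout. Markers of other cell types were low: the 8 fibroblast markers summed to 12.8 and 11.9 CPM in miR-146a-5p cells, against 6.91 and 7.83 CPM in scramble cells. Of these 8, only ACTA2 and PDGFRB were tested, and the other 6, DCN and LUM among them, had at most 4 counts in any library. Endothelial markers summed to between 0.134 and 0.591 CPM and leukocyte markers to between 12.8 and 16.95 CPM, with CD3E at 0 throughout. The part of other cells in the collagen values was not tested.

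None of the 17 collagen chain genes passed edgeR's quasi-likelihood test (Benjamini-Hochberg adjusted p under 0.05), and neither did any other gene, a background of 0% of 14810 genes tested. The lowest adjusted p among the 17 was 0.970. IRAK1, with a log2 fold change of -2.48 ± 0.24 (SE), did not pass edgeR either (adjusted p = 0.728). A gene that did not pass edgeR is therefore not shown to be unchanged. DESeq2 also called 0 of the 17, with adjusted p-values between 0.455 and 1.00, while it called 52 of 16044 genes (0.324%). IRAK1 was among those 52 (DESeq2 adjusted p = 5.03e-09). At an unadjusted p under 0.05, edgeR listed 1 collagen chain gene, COL7A1, against 3.71% of all tested genes. The log2 fold change was positive in 9 of the 17 and negative in 8, and its median was 0.0015, against -0.0057 for the 13268 tested genes with a mean of at least 1 CPM. In 6 of the 17 both miR-146a-5p libraries lay above both scramble libraries, where 17.8% of those 13268 genes did so. In 3 of the 17 both lay below, against 18.4% of those genes.

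The sequence by which miR-146a-5p recognises its targets is shown first, because the search of the collagen transcripts rests on it. The mature microRNA is given from RefSeq (GRCh38.p14, chr5:160485372-160485393, plus strand), with the seed, bases 2 to 8, in capitals.
hsa-miR-146a-5p: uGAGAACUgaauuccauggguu
For every gene, 1 coding transcript of GENCODE 29, the longest, was searched in its 3' UTR for the complement of the seed or the complement of its bases 2 to 7 followed by A. All 17 genes had an annotated 3' UTR, of 297 bases in COL6A2 to 3090 bases in COL8A1, with a median of 1163 bases against 1333 bases over tested genes. Of the 17, only COL1A1 held a match, while 21% of the 12433 tested genes with a 3' UTR held at least 1. The COL1A1 match is of the shorter kind, bases 2 to 7 followed by A, and lies at chr17:50184951-50184957 on the minus strand (GRCh38). It is shown with 11 bases on either side and the match in capitals.
COL1A1 3' UTR site: ggggacctgggGTTCTCAgactgccaaag
COL1A1 is also the least expressed of the 17, and its counts lay above the scramble libraries in both miR-146a-5p libraries, as given with the fibril-forming chains. Among the 27 genes under 1 CPM, COL4A3, COL6A3 and COL9A1 held a match. A match is a description of letters in this window and was not tested as a site. Other transcript regions, other transcripts of a gene and other kinds of pairing were not searched.

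**Figure D1:**
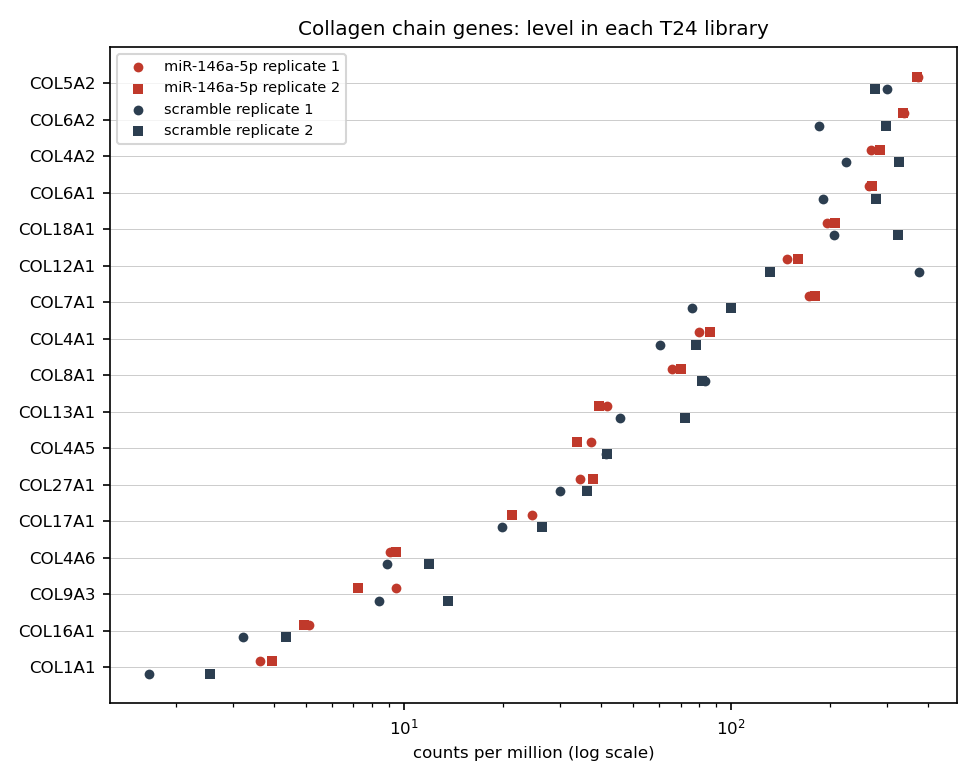
CPM (log axis) of the 17 collagen chain genes with a mean of at least 1 CPM in each library, with miR-146a-5p points drawn just above scramble points of the same gene and replicates 1 and 2 as circles and squares. The miR-146a-5p pair lies close together for most genes, while COL12A1 spans 131 to 374 CPM within the scramble pair.

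The anchoring fibril collagen COL7A1 had the largest fold change and the smallest p among the 17 genes with a mean of at least 1 CPM. Its product, type VII collagen, is a homotrimer that ties the basement membrane of stratified epithelia to the matrix below. The gene (ENSG00000114270) lies on chromosome 3 from 48564073 to 48595267 on the minus strand (GRCh38). COL7A1 had 172 and 180 CPM in the miR-146a-5p libraries, against 75.8 and 99.98 CPM in the scramble libraries. Both miR-146a-5p libraries were above both scramble libraries, with no overlap. The means were 176 ± 5.58 and 87.9 ± 17.1 CPM (SD, n = 2 each), a ratio of 2.01. The log2 fold change was 1.00 ± 0.22 (SE), with a 95% interval from 0.42 to 1.59. It did not pass after adjustment (edgeR adjusted p = 0.970; DESeq2 adjusted p = 0.455). The authors' TPM, a level scaled by transcript length, showed the same separation, with 46.2 and 47.5 in miR-146a-5p cells against 20.7 and 26.2 in scramble cells. Its log2 fold change was 0.82 without scramble replicate 1 and 1.23 without scramble replicate 2. COL7A1 passed DESeq2 when trends with GC content and length were removed from each library, an alternative chosen after seeing the data (log2 fold change 1.07, adjusted p = 4.97e-05, where 1.73% of tested genes passed).

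The type VI chains form the beaded microfilaments that surround cells and bind the basement membrane. COL6A1 and COL6A2 lie side by side on the plus strand of chromosome 21, from 45981737 to 46005050 and from 46098097 to 46132849 (GRCh38). COL6A2 had 338 and 336 CPM with miR-146a-5p, against 185 and 297 CPM with scramble. Its groups did not overlap, with means of 337 ± 1.09 and 241 ± 78.9 CPM (SD, n = 2 each). The scramble values differed from each other by more than the nearer of them differed from the miR-146a-5p values. The log2 fold change was 0.48 ± 0.27 (SE; edgeR adjusted p = 0.970), from 0.18 without scramble replicate 1 to 0.88 without scramble replicate 2. COL6A2 was, once GC and length trends were removed, the other collagen gene to pass DESeq2 (0.66, adjusted p = 0.0084). COL6A1 had 265 and 269 CPM with miR-146a-5p, against 190 and 278 CPM with scramble. The groups overlapped in CPM, because scramble replicate 2 was the highest of the 4 libraries. In TPM they did not overlap, with 93.3 and 92.5 with miR-146a-5p, against 69.6 and 86.9 with scramble. The edgeR log2 fold change of COL6A1 was 0.19 ± 0.24 (SE; edgeR adjusted p = 0.970), and its sign was negative (-0.06) without scramble replicate 1.

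Triple helices need matching chains, so levels of partner chains were compared per length in the authors' TPM. The ratio of COL6A2 to COL6A1 in TPM was 1.42 and 1.42 in miR-146a-5p cells, against 1.07 and 1.21 in scramble cells. That ratio does not depend on library depth, and the groups did not overlap. COL6A3, the chain that classically completes type VI with these, had 9 and 15 counts in miR-146a-5p libraries, against 4 and 3 in scramble libraries, which is under 1 CPM in each. Its alternatives COL6A5 and COL6A6 had 0 counts in all 4 libraries, where 0 counts allow up to between 0.132 and 0.148 CPM.

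**Figure D2:**
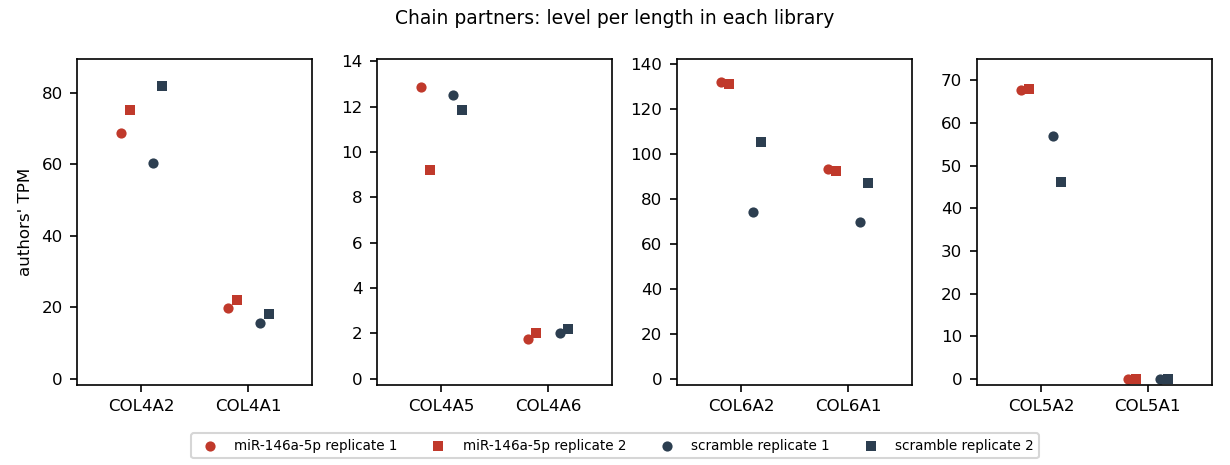
The authors' TPM (level per length) of 4 pairs of partner chains in each library, miR-146a-5p points left of scramble points. COL4A2 is above COL4A1 and COL4A5 above COL4A6 in every library, and COL5A1 is at or near 0 where COL5A2 is between 46.2 and 67.98 TPM.

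Type IV chains build the basement membrane network, classically from alpha-1 and alpha-2 chains wound together. COL4A2 had 268 and 284 CPM with miR-146a-5p, against 225 and 326 CPM with scramble. The scramble libraries bracketed the miR-146a-5p libraries, and the means were 276 ± 11.7 and 275.5 ± 71.5 CPM (SD, n = 2 each). The log2 fold change was 0.0015 ± 0.24 (SE; edgeR adjusted p = 0.998), with a 95% interval from -0.64 to 0.64. It was -0.24 without scramble replicate 1 and 0.31 without scramble replicate 2. COL4A1 had 79.9 and 86.05 CPM with miR-146a-5p, against 60.5 and 78.1 CPM with scramble. Its groups were separated by a narrow margin, with a log2 fold change of 0.26 ± 0.22 (SE; edgeR adjusted p = 0.970). It was 0.09 without scramble replicate 1 and 0.47 without scramble replicate 2. In TPM, COL4A2 exceeded COL4A1 by a ratio of 3.46 and 3.39 in miR-146a-5p cells, against 3.86 and 4.52 in scramble cells. The RNA of the alpha-2 chain was thus above that of the alpha-1 chain per length in all 4 libraries.

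The genes of this pair start head to head and share a start region, which is why its sequence is shown. In RefSeq, the start of COL4A2 on the plus strand lies 127 bases from that of COL4A1 on the minus strand. The window runs 250 bases before to 50 after the COL4A2 start (GRCh38.p14, chr13:110307034-110307333, plus strand), and capitals run from the COL4A1 start to the COL4A2 start.
COL4A2 start region: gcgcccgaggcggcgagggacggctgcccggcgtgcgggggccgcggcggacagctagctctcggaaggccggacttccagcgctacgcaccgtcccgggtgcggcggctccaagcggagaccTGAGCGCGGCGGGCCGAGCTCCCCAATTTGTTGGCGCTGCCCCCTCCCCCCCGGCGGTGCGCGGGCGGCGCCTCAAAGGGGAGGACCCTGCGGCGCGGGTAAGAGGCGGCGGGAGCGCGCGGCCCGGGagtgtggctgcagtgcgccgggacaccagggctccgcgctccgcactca
The stretch between the starts holds 1 GC box (GGGCGG on either strand) and 1 CCAAT box (CCAAT on either strand), which do not overlap. Of 35116 RefSeq start windows of the same length, 45.0% hold a GC box and 34.6% a CCAAT box. Start windows were listed for 12 of the 17 genes, of which 9 held a GC box and 5 a CCAAT box in any of their windows. These are counts of genes, some with more than 1 window, and are not like the shares of single windows.

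COL4A5 and COL4A6, on chromosome X, are a second head-to-head pair of type IV chains, with starts 380 bases apart for the nearer of 2 listed COL4A6 starts. COL4A5 had 37.2 and 33.7 CPM with miR-146a-5p, against 41.4 and 41.9 CPM with scramble. The miR-146a-5p libraries lay below both scramble libraries, with a log2 fold change of -0.23 ± 0.19 (SE; edgeR adjusted p = 0.970), and in TPM the groups overlapped. COL4A6 was between 8.84 and 11.9 CPM in the 4 libraries, with overlapping groups. COL4A3 and COL4A4, the chains best known from the kidney filter, stayed under 1 CPM, with at most 1 count for COL4A3 and 9 or 10 counts for COL4A4.

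The fibril-forming class has 11 genes, of which COL5A2, COL27A1 and COL1A1 reached 1 CPM. COL5A2, a chain that regulates fibril diameter together with type I collagen, had the highest mean count of the family. It lies on the minus strand of chromosome 2 from 189031896 to 189225312 (GRCh38). COL5A2 had 374 and 371 CPM with miR-146a-5p, against 300.1 and 276 CPM with scramble, with no overlap. Its means were 372 ± 2.09 and 288 ± 17.01 CPM (SD, n = 2 each). The log2 fold change was 0.37 ± 0.15 (SE), with a 95% interval from -0.04 to 0.78 (edgeR adjusted p = 0.970). It was 0.43 without scramble replicate 1 and 0.32 without scramble replicate 2. Removing trends with GC content and length gave 0.31. COL5A1, the chain with which COL5A2 is classically assembled, had 2 and 3 counts with miR-146a-5p and 0 and 0 with scramble.

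COL1A1 encodes the main chain of type I collagen, the bulk collagen of bone, skin and tendon. It had 3.62 and 3.94 CPM with miR-146a-5p, against 1.65 and 2.55 CPM with scramble. The groups did not overlap, and the log2 fold change was 0.85 ± 0.34 (SE; edgeR adjusted p = 0.970; 95% interval from -0.08 to 1.77). The authors' TPM did not show the same: it was 0.66 and 0.95 with miR-146a-5p, against 1.29 and 0.59 with scramble, and the groups overlapped. COL1A1 and COL17A1 were the 2 of the 17 genes whose difference had opposite signs in counts and in TPM. COL1A2, the partner chain of COL1A1, had 5 and 12 counts with miR-146a-5p, against 8 and 0 with scramble. COL3A1, which forms fibrils in hollow organs and vessels, had 8 and 10 counts with miR-146a-5p, against 1 and 0 with scramble. COL1A2 and COL3A1 were low, under 1 CPM in every library, and the authors' deposited table lists COL3A1 with an adjusted p-value of 1.00. Every library was of the single line T24, and bulk libraries do not show how the counts of COL1A2 and COL3A1 were spread over its cells. COL27A1 was between 29.9 and 37.9 CPM with overlapping groups, and COL2A1 had 0 counts throughout.

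Among fibril-associated chains, which sit on the surface of fibrils, COL12A1 was the most abundant and the least stable between replicates. It is the longest transcript of the family at 11725 bases, on the minus strand of chromosome 6 from 75084326 to 75206051 (GRCh38). COL12A1 had 148 and 160.2 CPM with miR-146a-5p, against 374 and 131 CPM with scramble. Scramble replicate 1 was the highest of the 4 libraries and scramble replicate 2 the lowest, so the miR-146a-5p values lay between them. The means were 154 ± 8.43 and 253 ± 172 CPM (SD, n = 2 each). The log2 fold change of -0.71 ± 0.53 (SE; edgeR adjusted p = 0.970) was -1.27 without scramble replicate 2 and turned to 0.23 without scramble replicate 1. COL16A1 had 5.11 and 4.93 CPM with miR-146a-5p, against 3.22 and 4.35 CPM with scramble, with no overlap in counts and an overlap in TPM. Its log2 fold change of 0.41 ± 0.28 (SE; edgeR adjusted p = 0.970) was 0.21 without scramble replicate 1 and 0.65 without scramble replicate 2. COL9A3, known from cartilage, was between 7.24 and 13.6 CPM with overlapping groups. Of the other 7 genes in this class, COL9A2 had 7 to 16 counts and the rest at most 3 counts in any library.

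The multiplexin COL18A1, whose cleavage releases endostatin, had 197 and 208 CPM with miR-146a-5p, against 206 and 324 CPM with scramble. The groups overlapped by a small margin at scramble replicate 1. Its log2 fold change was -0.39 ± 0.27 (SE; edgeR adjusted p = 0.970), -0.68 without scramble replicate 1 and -0.01 without scramble replicate 2. COL15A1, the other multiplexin, had 0 counts in all libraries.

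The transmembrane chains COL13A1 and COL17A1 act in cell adhesion, COL17A1 as a component of hemidesmosomes. COL13A1 had 41.6 and 39.4 CPM with miR-146a-5p, against 45.8 and 72.2 CPM with scramble. Its groups did not overlap in counts or in TPM, and its log2 fold change was -0.54 ± 0.29 (SE; edgeR adjusted p = 0.970). The value was -0.83 without scramble replicate 1 and -0.16 without scramble replicate 2. COL17A1 was between 19.9 and 26.4 CPM, with overlapping groups. The short-chain collagen COL8A1, found in vessel walls and the cornea, had 65.9 and 70.4 CPM with miR-146a-5p, against 83.2 and 81.2 CPM with scramble. It had the tightest scramble pair after COL4A5, and both miR-146a-5p libraries lay below it, while in TPM the groups overlapped. Its log2 fold change was -0.27 ± 0.18 (SE; edgeR adjusted p = 0.970), -0.25 without scramble replicate 1 and -0.28 without scramble replicate 2.

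**Figure D3:**
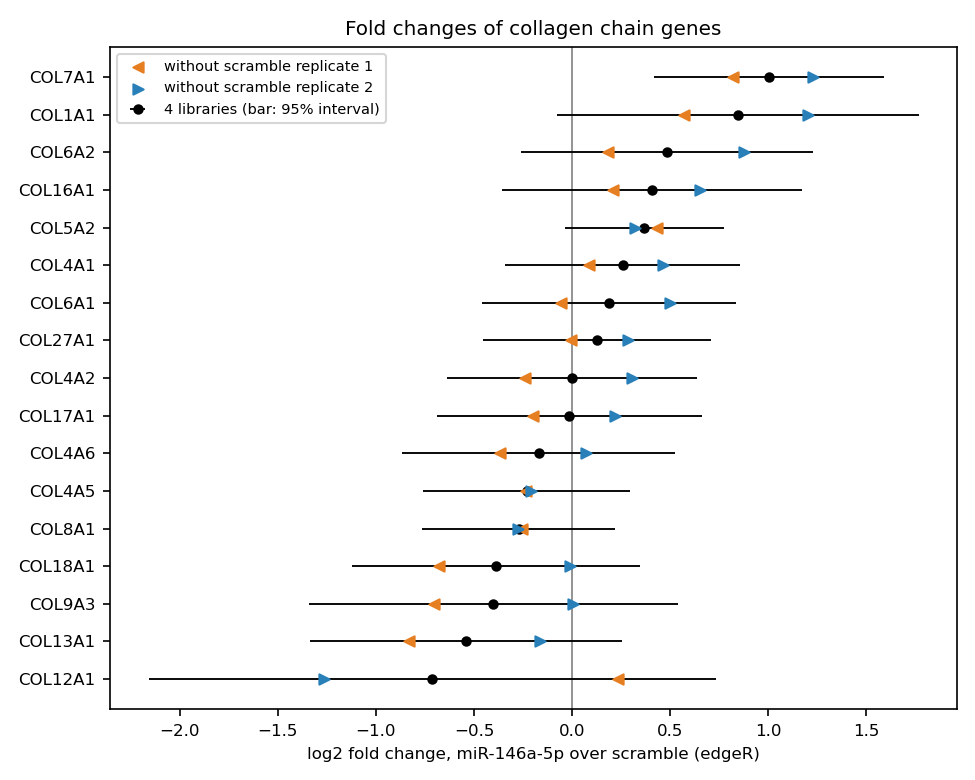
Log2 fold change (miR-146a-5p over scramble) of the 17 genes by edgeR, with 95% intervals from 4 libraries as bars and the values without scramble replicate 1 or 2 as orange and blue triangles. COL7A1 has an interval above 0 before adjustment for other genes, and the triangles of COL12A1 lie on opposite sides of 0.

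Which scramble library served as the comparator decided the sign for 7 of the 17 genes, namely COL4A2, COL6A1, COL12A1, COL27A1, COL17A1, COL4A6 and COL9A3. The share of all tested genes that changed sign in this way was not counted, so the 7 are not shown to be a trait of collagen genes. Without scramble replicate 1, edgeR called 8 of the 17 (3 higher and 5 lower), against 54.9% of all tested genes. Without scramble replicate 2 it called 9 (7 higher and 2 lower), against 21.7% of all tested genes. These fits hold a single scramble library and take its spread from the miR-146a-5p pair, so they carry no estimate of scramble spread. Beside the 7 genes that changed sign, 10 of the 17 had the same sign in both fits. The median log2 fold change of the 17 was -0.06 without scramble replicate 1 and 0.29 without scramble replicate 2, against -0.02 and 0.02 for tested genes of at least 1 CPM.

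GC content moved with these differences. Most of the 17 transcripts were rich in G and C, with a range from 46.3% in COL12A1 to 67.4% in COL9A3. Their median was 61.1%, against a median of 48.3% for tested genes of at least 1 CPM. COL12A1, COL8A1 (46.8%) and COL5A2 (47.95%) lay below that median of tested genes. Scramble replicate 2 was above scramble replicate 1 in 14 of the 17, and 6 of the 17 differed by more than 1.5-fold between the scramble libraries, against 0 between the miR-146a-5p libraries. The matching shares of all tested genes were not counted. More than 2-fold differences separated the scramble pair in 23.5% of tested genes and the miR-146a-5p pair in 2.71%. Across the 17 genes the log2 difference of scramble replicate 2 minus 1 and GC content had a Pearson r of 0.753, and 0.860 over the 16 genes without COL12A1. All points share the same libraries, and genes are not independent replicates. COL18A1, for example, had a difference of 0.66, and tested genes within 1.5 percentage points of its GC content had a median of 0.63. COL12A1 stood away from that trend, with -1.51 against a median of 0.0015 for genes of its GC content. COL7A1 had 0.40 against 0.58. The part of GC content in the group differences was not tested beyond the fits with GC and length trends removed, in which 2 of the 17 genes passed DESeq2 and 0 passed edgeR.

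**Figure D4:**
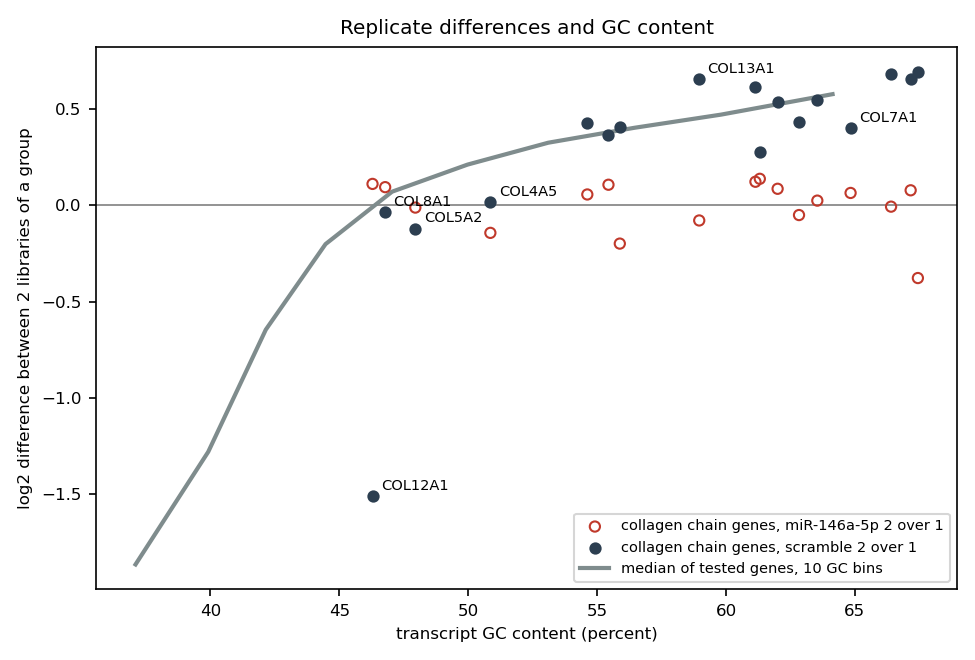
Log2 difference between replicate 2 and replicate 1 of each group against transcript GC content, for the 17 collagen chain genes (open red circles, miR-146a-5p; filled dark circles, scramble) and the median of all tested genes in 10 GC bins (grey line, scramble). Most filled circles follow the grey line, COL12A1 lies at -1.51, and the open circles lie near 0.

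The 27 genes under 1 CPM were COL11A2, COL9A2, COL4A4, COL6A3, COL1A2, COL3A1, COL8A2, COL23A1, COL24A1, COL25A1, COL5A3, COL11A1, COL5A1, COL14A1, COL28A1, COL21A1, COL26A1, COL4A3, COL10A1, COL9A1, COL22A1, COL19A1, COL6A6, COL2A1, COL6A5, COL20A1 and COL15A1. Of these, 5 had 0 counts in all libraries, 19 never exceeded 3 counts, and the highest single count was 20. COL11A2, COL9A2 and COL4A4 had enough counts to be tested, which made 20 tested genes of the 44, and none of the 3 passed. The threshold fell in a gap, between a mean of 2.94 CPM for COL1A1 and 0.715 CPM for COL11A2. The 44 genes together summed to 2076 and 2129 CPM with miR-146a-5p, against 1861 and 2104 CPM with scramble. The 7 most counted genes, COL5A2, COL6A2, COL4A2, COL6A1, COL18A1, COL12A1 and COL7A1, held 84.0% of that sum. Another 8 listed loci with collagen-like names, antisense transcripts and pseudogenes outside the naming rule, had at most 9 counts in any library.

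Collagen chains are hydroxylated and folded in the endoplasmic reticulum, exported, trimmed, crosslinked, bound by receptors and cut by proteases. A list of 58 genes for these steps had 57 matches, 46 of them tested and 40 with a mean of at least 1 CPM. None was called by edgeR or by DESeq2, and 3 (P4HA1, P4HA2 and PXDN) were under 0.05 in edgeR before adjustment, where 3.71% of all tested genes were. Of the 40 there were 19 with a positive and 21 with a negative log2 fold change, and without scramble replicate 2 these numbers were 28 and 12. Of the 16 hydroxylation and folding genes at 1 CPM, 4 were positive and 12 negative, with a median of -0.10. Leaving out scramble replicate 2 turned this round, to 14 positive and 2 negative with a median of 0.21, while without scramble replicate 1 there were 5 positive and 11 negative with a median of -0.33. P4HA2, a proline hydroxylase subunit, had 66.0 and 64.6 CPM with miR-146a-5p, against 37.7 and 44.4 CPM with scramble. P4HA1, its paralog, had 180.5 and 182 CPM with miR-146a-5p, against 127 and 76.6 CPM with scramble. Both were above the scramble libraries without overlap, with log2 fold changes of 0.67 ± 0.20 and 0.83 ± 0.30 (SE; edgeR adjusted p = 0.970 for each). P4HA1 was at 1.24 without scramble replicate 1, 0.52 without scramble replicate 2 and 0.47 in edgeR with GC and length trends removed. P4HA2 passed DESeq2 once those trends were removed (log2 fold change 0.68), and P4HA1 did not (0.46). The 5 secretion genes had a median of 0.08, which was 0.52 without scramble replicate 1 and -0.04 without scramble replicate 2. SEC23A, a coat protein of export vesicles, had 232 and 235 CPM with miR-146a-5p, against 230.4 and 99.4 CPM with scramble. SEC13, another coat protein, had 100.5 and 97.98 CPM with miR-146a-5p, against 98.5 and 133.5 CPM with scramble, with overlapping groups.

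The 5 genes for removal of propeptides had a median of 0.03, which was -0.04 without scramble replicate 1 and 0.45 without scramble replicate 2. ADAMTS2, which cuts the amino-terminal propeptide of fibrillar chains, had 1.49 and 1.38 CPM with miR-146a-5p, against 0.893 and 0.790 CPM with scramble, and BMP1, which cuts the carboxy-terminal propeptide, had overlapping groups. The 6 crosslinking genes had a median of -0.11, which was -0.30 without scramble replicate 1 and 0.03 without scramble replicate 2. PXDN, the peroxidase that forms sulfilimine crosslinks in type IV collagen, had 7.15 and 5.77 CPM with miR-146a-5p, against 1.83 and 3.56 CPM with scramble. Its groups did not overlap, its log2 fold change was 1.26 ± 0.42 (SE), and it did not pass (edgeR adjusted p = 0.970). LOXL3, a lysyl oxidase relative, had 1.89 and 2.43 CPM with miR-146a-5p, against 2.62 and 3.07 CPM with scramble. The 6 receptors at 1 CPM had a median of 0.62, which became 2.37 when scramble replicate 1 was left out and -0.01 when scramble replicate 2 was. The collagen-binding integrins ITGA11 and ITGA10, with the smallest p of that list, were below 1 CPM on average, with log2 fold changes of -0.91 ± 0.48 and -1.11 ± 0.65 (SE). ITGA11 was at -0.58 without scramble replicate 2, and ITGA10 was at -2.02 and -0.55 without miR-146a-5p replicates 1 and 2. The 10 listed receptors summed to 2007 and 2131 CPM with miR-146a-5p, against 1710 and 581 CPM with scramble. The low value was that of scramble replicate 2. Most of each sum was 1 gene, ITGB1, with 1743 and 1848 CPM with miR-146a-5p, against 1492 and 419 CPM with scramble. Of the collagenases and gelatinases, MMP14 had 281 and 279 CPM with miR-146a-5p, against 229 and 299.6 CPM with scramble, and MMP1 stayed below 1 CPM in every library.

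**Figure D5:**
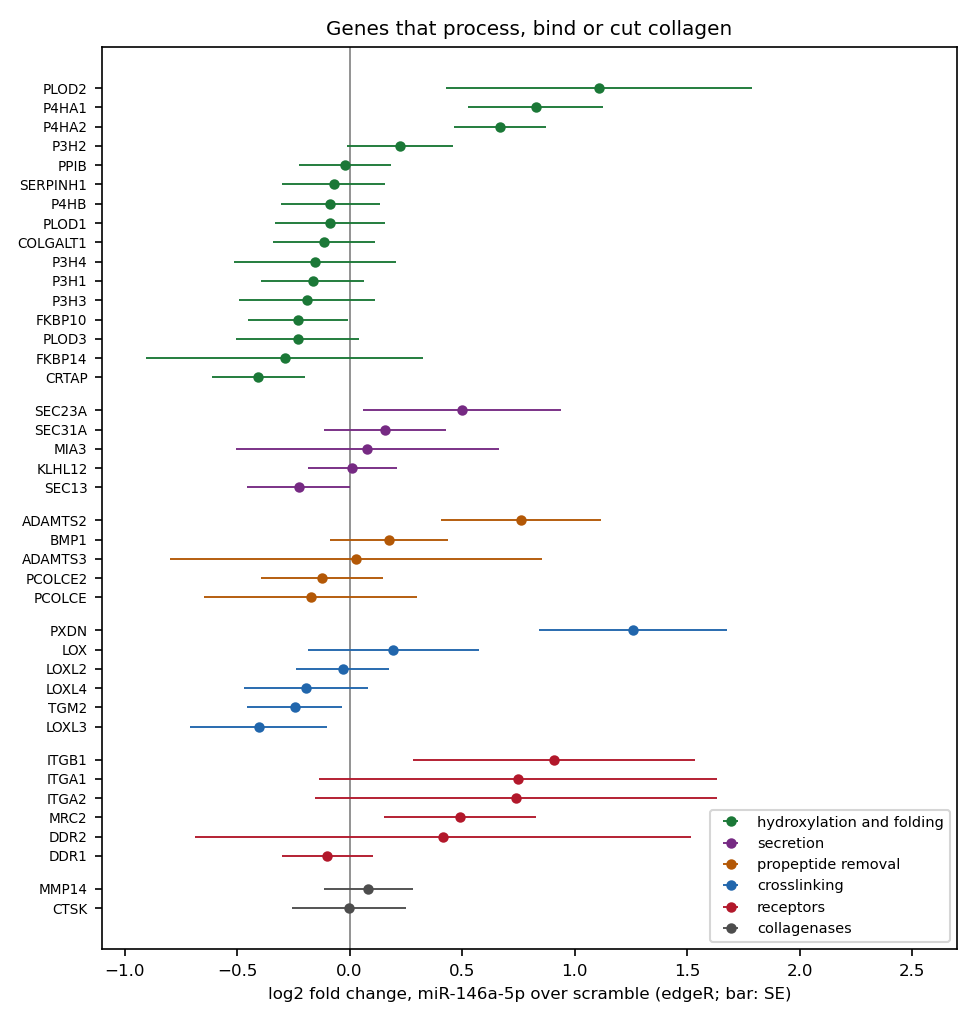
Log2 fold change (miR-146a-5p over scramble, edgeR) with SE bars for the 40 genes of collagen processing, binding and cleavage with a mean of at least 1 CPM, coloured by list. PXDN lies highest at 1.26, and no gene passed the adjusted threshold.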

How the data were processed

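The deposited table gives, per the file headers, an estimated count and a TPM for each gene and library, a mean TPM per group, and the authors' fold change (the ratio of the groups), its log2 value, p-value and adjusted p-value. Build hg19 and the tools HTSeq 0.6.1, HISAT2 2.0.1, DESeq2 and cutadapt 1.9.1 are listed, per the submitters' processing notes, without their roles, and the annotation release was not stated. Among genes above 0 in every library, 34.3% of the deposited estimated counts were not whole.

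Counts were rounded and tested with edgeR 4.0.16 (R 4.3.3; filterByExpr with minimum count 10 and total 15, TMM, group as only term) on all 14810 genes that passed. SEs were derived from the F statistic. DESeq2 1.42.0, limma-voom (limma 3.58.1), other scalings and filters, each library left out, the replicate number as a block, and offsets from natural splines (5 degrees of freedom) on transcript GC content and length were alternatives. Transcript sequences came from GENCODE 29 (GRCh38). The scripts were tested on simulated data. The collagen genes, gene lists and tests were chosen with earlier results of these data known. Full values are given for the 10 genes with the highest mean CPM and the 8 with the smallest edgeR p, and for the 2 with the smallest p in each processing list. CTAGE5 had no match. Whether counting used strand was not stated. The 95% intervals of fold changes come from edgeR's fit and include spread between libraries, while limits of 0 counts (3 counts) cover counting error only.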

Additional observations from a re-analysis of the deposited data

How the results depend on the processing

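No collagen chain gene and no processing gene was called by edgeR with DESeq2 size factors, library totals, no filter, a filter at 1 CPM, unrounded counts or GC and length offsets, by limma-voom, or by DESeq2. Over all genes DESeq2 called 52 (44 higher, 8 lower). DESeq2 with the offsets, chosen after seeing the data, called 216, among them 2 collagen chain genes and 1 processing gene (P4HA2). With a library left out, edgeR calls ran from 8 to 8421 over all genes, 0 to 9 collagen chain genes and 0 to 28 processing genes, and the median log2 fold change of the 17 from -0.058 to 0.29. DESeq2, also added after seeing the data, called 5349 without scramble replicate 1 and 1107 without scramble replicate 2 (collagen chain genes 5 and 7, processing genes 25 and 10, median 0.28 in the second), and 2 without either miR-146a-5p library. Medians of the processing lists without each scramble library were also added after seeing the data. Each fit lets a lone library vary like the other pair. Shares of all tested genes were not counted for the DESeq2 fits without a library. Their calls are therefore not shown to be a trait of collagen chain or processing genes.

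The replicate block called 5 genes over all genes, and 0 collagen chain or processing genes. Nothing in the labels ties same-numbered libraries together, and their deviations correlated at -0.146 across genes, so a crossed pairing was added, which called 0. With GC and length offsets the block called 0.

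Signs turned for COL4A2 (-0.013 by DESeq2, -0.0071 with its size factors), COL17A1 (0.0295 with offsets, 0.034 with the block as well, 0.018 by DESeq2 with offsets) and SEC23A (-0.021, -0.0074 and -0.031 in those 3 fits). The cause was not tested. Leaving out a library, edgeR log2 fold changes ran from -0.24 to 0.31 for COL4A2, -0.058 to 0.50 for COL6A1, -1.27 to 0.23 for COL12A1, -0.0039 to 0.29 for COL27A1, -0.20 to 0.22 for COL17A1, -0.37 to 0.074 for COL4A6, -0.70 to 0.0040 for COL9A3, -0.096 to 0.30 for MMP14, -0.043 to 0.45 for BMP1 and -0.43 to 0.023 for SEC13. By DESeq2 the turned values were -0.25 and -0.055 for COL4A2, -0.066 for COL6A1, 0.23 for COL12A1, -0.011 for COL27A1, 0.21 and 0.068 for COL17A1, 0.063 for COL4A6, -0.10 for MMP14, -0.051 for BMP1 and 0.012 for SEC13. A mean TPM of at least 1 also gave 17 collagen chain genes, 16 of them shared, with COL23A1 in place of COL1A1, and TMM-scaled CPM gave 17. Depth limits the genes under 1 CPM, where single counts decide a value.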
